A study of Mus musculus with 8 samples.

Results

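The regions described here carried acetylated histone H3 (H3ac) peaks in both libraries of cells treated with CuNZ@Gel and in neither library of cells treated with Gel. They were selected on the presence of peaks: the 4 library peak lists were merged wherever peaks overlapped by at least 1 bp on chromosomes 1 to 19, X and Y, and 259 of 81544 merged regions met the rule. This is 0.318% of the merged regions. The rule itself sets that count, so nothing is read from it. The cells were RAW 264.7, an established mouse macrophage-like line, and H3ac was mapped by chromatin immunoprecipitation and sequencing. Each treatment, Gel or CuNZ@Gel, had 2 immunoprecipitated libraries, and the labels list 4 further input libraries, which were not analysed here. The protocol text, which is the same for all samples, describes 48 h with extracts of CuNZ@Gel, so the treatment of the Gel cells rests on their treatment label alone. Nothing in the labels gives each library its own culture, and differences within a treatment can therefore be technical. By its title, the series is about inflammation and diabetic wound repair under a hydrogel that carries a nanozyme. These regions address where H3ac peaks were listed with the nanozyme in the gel and not with the gel alone. Gel signal under them was not measured, so a missing Gel peak does not mean that H3ac was absent.

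Acetylation of the histone H3 tail loosens the contact between DNA and the nucleosome and is read by bromodomain proteins. Acetyltransferases such as p300 and CBP place it, and histone deacetylases remove it. In macrophages H3ac marks the promoters and enhancers in use, and inflammatory stimuli can add it at enhancers that were silent before. No gene is named below, because the peak lists give positions on GRCm39 without genes and no genome or annotation of that build was used here. For the same reason the labelled cell type was not checked against its marker genes.

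Each peak is described by the authors' fold enrichment over background, and by the number of sequenced fragments stacked at the summit with the local background under them, both of the latter solved from the authors' fold and p. The lowest background of a list, which was also its commonest one, served as the library background: 4.62 and 4.28 fragments for Gel replicates 1 and 2, against 3.45 and 2.46 for the same replicates of CuNZ@Gel. The CuNZ@Gel libraries thus had the lower background in fragments. Read totals are not in the lists, so this cannot be told apart from a lower sequencing depth. The lists held 58612 and 60483 peaks for Gel and 40075 and 34693 for CuNZ@Gel. At library background, the weakest peaks in the Gel lists had 13 and 12 summit fragments and a fold of 2.49 and 2.46. In the CuNZ@Gel lists the weakest had 11 and 9 fragments and a fold of 2.69 and 2.89. A fold large enough to be listed in CuNZ@Gel at library background was therefore above the lowest fold listed in Gel.

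Against their whole lists the CuNZ-only regions were narrow, weak H3ac peaks, a trait not particular to them. The fold ranged from 1.84 to 6.75 with a median of 3.37 in CuNZ@Gel replicate 1, and from 1.78 to 6.48 with a median of 3.67 in replicate 2. The medians of the whole lists were 4.50 and 4.92. A median CuNZ-only peak had a higher fold than 17.6% of the peaks of its own list in replicate 1 and than 20.6% in replicate 2. In fragments, the median summit held 15 in replicate 1 and 12 in replicate 2, only a few above the lowest numbers that could be listed. A fold of 4 or more was reached in both libraries by 24 of the 259 regions, and a fold of 5 or more by 4. Peaks covered a median of 241 bp in replicate 1, between 157 and 800 bp, and of 231 bp in replicate 2, between 160 and 857 bp. The narrowest peaks of these 2 lists anywhere were 156 and 160 bp, so many CuNZ-only peaks lay near the smallest width listed. In 257 of the 259 regions each library had a single peak. By their medians, regions with a peak in 1 CuNZ@Gel library alone were weaker and narrower. Their fold was 3.15 in replicate 1 and 3.47 in replicate 2, with 202 and 203 bp covered. Regions of both CuNZ@Gel libraries and 1 Gel library had a median fold of 3.60 and 3.76, with 265 and 251 bp. Those with peaks in all 4 libraries had 6.35 and 6.07, with 788 and 692 bp.

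**Figure D1:**
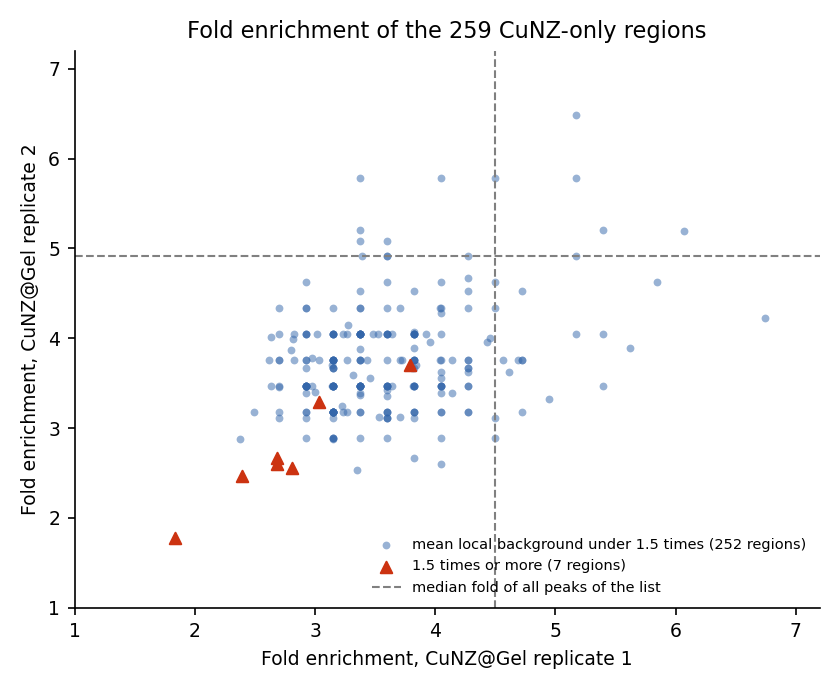
Each point is 1 of the 259 CuNZ-only regions, with the authors' fold enrichment in CuNZ@Gel replicate 1 on the x axis and in replicate 2 on the y axis; triangles mark the 7 regions with a mean local background of 1.5 times the library background or more. Dashed lines give the median fold of all peaks of each list (4.50 and 4.92), and most points lie below both.

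The region with the highest mean fold was chr10:35744163-35744330. Its fold was 5.17 in CuNZ@Gel replicate 1 and 6.48 in replicate 2, from 22 and 24 summit fragments. It was only 168 bp wide, and its summits lay 32 bp apart in the 2 libraries. It also lay 1105646 bp from the nearest Gel peak, farther than any other CuNZ-only region.

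Next came chr5:18219486-18219727, 242 bp wide, with a fold of 6.07 and 5.20 and 26 and 18 fragments in CuNZ@Gel replicates 1 and 2. Its summits were 9 bp apart, and the nearest Gel peak was 17564 bp away. At chr19:9956121-9956945 the fold was 6.75 in replicate 1, the highest single value of the set, but 4.23 in replicate 2, where the local background was 1.42 times the library background. This region was also the widest by mean coverage, with 800 and 704 bp under peaks. The region chr8:94893785-94894074 had a fold of 5.17 and 5.79 with both summits at the same base. A peak of Gel replicate 2 ended 132 bp before it, with a fold of 3.60. In Gel replicate 2 a peak thus lay beside the CuNZ@Gel peak without overlapping it.

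Of the other 6 regions among the 10 highest, 5 lay within 500 bp of a region with peaks in all 4 libraries, as the chromosome 19 region did. The region chr10:80413380-80413565 had a fold of 5.40 and 5.21 and lay 176 bp from one. At chr14:74971170-74972087 the fold was 5.85 and 4.63, and the gap was 7 bp. The fold was 4.50 and 5.79 at chr7:140974378-140974647, with a gap of 299 bp. At chr2:127964248-127964456 it was 5.17 and 4.92, with a gap of 153 bp. The region chr7:96626749-96627466 had a fold of 5.62 and 3.89 and a gap of 184 bp. The last of the 10, chr4:150160263-150160595, had a fold of 4.05 and 5.79 and lay 10740 bp away. The strongest CuNZ-only peaks were therefore found both alone and beside shared H3ac regions. Most of these 10 lay within 500 bp of a shared region, against 27 of all 259 CuNZ-only regions (10.4%). This difference was not tested. Over all 259 regions, the fold by distance went opposite ways in the CuNZ@Gel replicates, as given below.

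The CuNZ-only regions were the repeated part of all regions that had a CuNZ@Gel peak and no Gel peak. The rule used both kinds of peak, so the shares that follow describe the lists and test nothing. Of 4186 such regions with a peak in replicate 1, the 259 repeated in replicate 2 were 6.19%. From the side of replicate 2 they were 8.72% of 2970. The repeated share was 3.75% of the 373 weakest replicate 1 regions, with a −log10 p under 4, and 19.7% (exact 95% binomial interval 14.8 to 25.4) of the 233 with 8 or more. In replicate 2 the same steps gave 4.31% of 348 and 22.2% (14.5 to 31.7) of 99. In these lists the repeated share was higher at each step of peak strength.

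For regions that also had a Gel peak, the share is given at the same steps. A Gel peak can join CuNZ@Gel peaks that do not overlap each other into 1 region, which then counts as repeated. The shares with and without a Gel peak thus rest on unlike conditions, and nothing is read from their difference. With a −log10 p of 4 to 5, replicate 2 repeated 30.1% of 2547 replicate 1 regions with a Gel peak and 3.95% of 1749 without one. With 8 or more, it repeated 91.8% of 19824 and 19.7% of 233, although peaks in this open-ended step can be far stronger where Gel had one too. In the Gel libraries, regions without any CuNZ@Gel peak repeated at 40.4% of 24193 from replicate 1 and 37.2% of 26311 from replicate 2. The intervals cover counting error only, and the regions of a library share its depth.

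**Figure D2:**
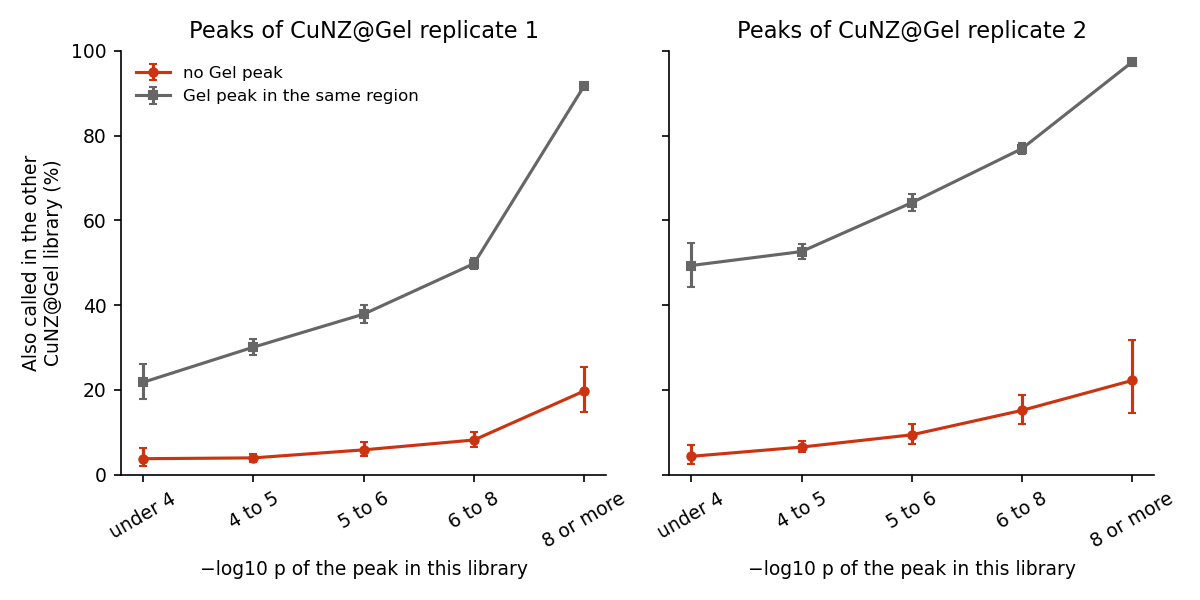
The y axis gives the share of regions of 1 CuNZ@Gel library that also had a peak in the other CuNZ@Gel library, against the −log10 p of the peak on the x axis. Red circles are regions without a Gel peak and grey squares regions with one, with exact 95% binomial intervals. The red points rise from 3.75% to 19.7% in the left panel and from 4.31% to 22.2% in the right panel, below the grey points at every step. A Gel peak can join CuNZ@Gel peaks that do not overlap each other, so red and grey points rest on unlike conditions.

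The placing of the peak in the 2 libraries was described by overlap and summit distance. The rule needed only 1 bp of overlap, but the median overlap was 164 bp, and in 221 of 259 regions (85.3%) it was at least 50% of the shorter peak. The summits lay a median of 78 bp apart. They were within 100 bp of each other in 153 regions (59.1%), against 58.9% of the 21909 regions with peaks in all 4 libraries and 56.0% of the 623 regions that both CuNZ@Gel libraries shared with 1 Gel library. Within 50 bp the shares were 31.7% of the CuNZ-only regions, 42.6% of the regions in all 4 libraries and 34.3% of the 623. The rule itself keeps the summits of such narrow overlapping peaks close, so nothing is read from these distances. The weakest overlap was 1 bp. Across the 259 regions the fold in the 2 libraries had a Pearson r of 0.36 and a Spearman rho of 0.246. These are descriptions of regions chosen for having a peak in both libraries.

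Most CuNZ-only peaks stood on ordinary background. Both libraries were at the library background in 157 of 259 regions (60.6%). Counted by library, 77.2% of CuNZ-only peaks were at library background in replicate 1 and 72.2% in replicate 2, against 80.1% and 78.1% of all peaks of these lists. The mean local background was 1.5 times the library background or more in 7 regions (2.70%). This share was 1.104% in the 9781 regions with peaks in both Gel and no CuNZ@Gel library, called Gel-only here, with their ratio taken from the Gel libraries. It was 1.19% in the regions with peaks in all 4 libraries and 2.41% in the 623 regions of both CuNZ@Gel libraries and 1 Gel library, with the ratio taken from CuNZ@Gel. The last of these, the class most like the CuNZ-only regions, thus had nearly the same share.

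Among those 7, chr11:3092373-3092681 stood apart. It had 99 and 76 summit fragments, the most of any CuNZ-only region, but a fold of only 1.84 and 1.78, over a local background of 15.5 times the library value in replicate 1 and 17.2 times in replicate 2. The nearest Gel peak, 752 bp away and in Gel replicate 2, stood on 18.2 times that library's background. At chr8:21205509-21206105 the background was 3.23 times the library value in both libraries, with a fold of 2.39 and 2.46. The nearest Gel peak, 8285 bp away, had 5.58 times. The next 3 were chrX:169301854-169302387 at 2.71 and 2.45 times, chr1:173680243-173680460 at 2.29 and 2.07 times, and chr2:46171940-46172166 at 1.875 and 1.94 times. The part of this background in their detection was not tested.

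A minority of CuNZ-only regions lay within 500 bp of a Gel peak. The nearest Gel peak was at a median distance of 1970 bp, and within 500 bp for 79 regions (30.5%). Of these 79, the nearest Gel-bearing region had a peak in 1 Gel library alone in 32 (40.5%). It had peaks in all 4 libraries in 25 (31.6%), and in both Gel but no CuNZ@Gel library in 9 (11.4%). Of all 81544 merged regions, with or without a Gel peak, these classes held 30942, 21909 and 9781. The classes thus came in the order of their sizes, and nothing is read from these counts. Of the 6638 regions with a peak in 1 CuNZ@Gel library alone, which face the same Gel lists, 26.2% lay within 500 bp of a Gel peak. Their median distance was 2288.5 bp. The CuNZ-only share of 30.5% was close to this, and nothing is read from it. For Gel-only regions, 19.1% lay within 500 bp of a CuNZ@Gel peak, though there were fewer CuNZ@Gel peaks to lie near. Only 8 CuNZ-only regions were over 100 kb from any Gel peak.

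The distance to the nearest region with peaks in all 4 libraries had a median of 10586 bp, from 7 to 1105646 bp. It was within 1 kb for 36 regions (13.9%) and over 100 kb for 26 (10.0%). Gel-only regions had a median of 8069 bp, with 16.3% within 1 kb and 5.04% over 100 kb. Regions with a peak in 1 CuNZ@Gel library alone had 13273 bp, with 9.39% and 9.91%. Those of both CuNZ@Gel libraries and 1 Gel library had 9653 bp, with 18.5% and 7.06%. CuNZ-only regions therefore lay between the unrepeated CuNZ@Gel regions and the Gel-only regions in their median distance. These are descriptions of region classes that differ in size, with no test.

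**Figure D3:**
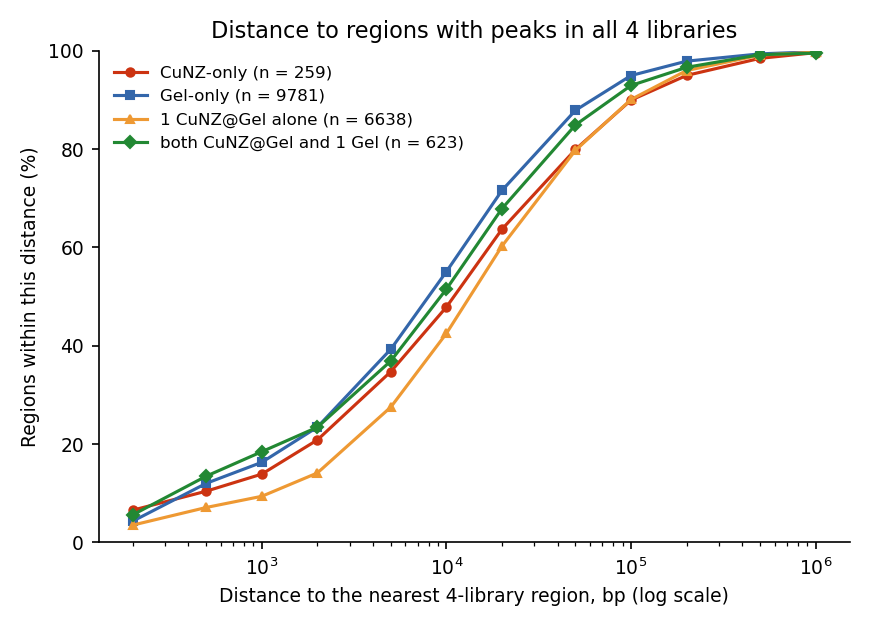
Lines give the percentage of regions (y axis) within a distance of the nearest region with peaks in all 4 libraries (x axis, bp, log scale) for 259 CuNZ-only regions, 9781 Gel-only regions, 6638 regions of 1 CuNZ@Gel library alone, and 623 regions of both CuNZ@Gel and 1 Gel library. At 10 kb the CuNZ-only line is at 47.9%.

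Strength by distance was as follows. The 36 regions within 1 kb had a median fold of 3.80 in CuNZ@Gel replicate 1 and 3.51 in replicate 2. The 88 regions at 1 to 10 kb had 3.37 and 3.67. The 109 regions at 10 to 100 kb had 3.37 and 3.76, and the 26 beyond 100 kb had 3.37 and 3.76 as well. The regions within 1 kb thus had the highest median in replicate 1 and the lowest in replicate 2. Summits were a median of 77 to 78.5 bp apart in all 4 distance groups.

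The 5 closest regions lay just outside the edge of a shared region. After the chromosome 14 region at 7 bp came chr5:142451279-142451653 at 13 bp, with a fold of 3.60 and 3.18. The others were chr3:95797177-95797475 at 31 bp, chr14:30317063-30317268 at 77 bp and chr3:104472553-104472785 at 85 bp. The last had a fold of 3.37 in replicate 1 and 5.09 in replicate 2. At the other end, after the isolated chromosome 10 region, chr11:37844114-37844491 lay 835243 bp from a shared region with a fold of 3.64 and 4.05. The next, chr9:33803750-33803909, was 160 bp wide and lay 595653 bp away with a fold of 2.64 and 3.47. Both chr2:178273633-178273986, at 553371 bp, and chr8:116141037-116141297, at 490995 bp, had 14 and 13 fragments and a fold of 3.37 and 4.05. Apart from the chromosome 10 region, the far regions named had a mean fold between 3.05 and 3.84, where the median of all 259 was 3.57.

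The shared regions beside CuNZ-only peaks give a measurement that the rule did not use directly, the width and summit of another region in all 4 libraries. It is not fully independent, since a wider Gel peak there would have reached the CuNZ-only peak and removed it from the set. Over all 21909 shared regions, peaks were narrower in both CuNZ@Gel than in both Gel libraries in 74.5% and wider in 1.26%. Of the 36 shared regions within 1 kb of a CuNZ-only region, 21 (58.3%) were narrower and 3 (8.33%) wider. Of the 1546 within 1 kb of a Gel-only region, 77.5% were narrower and 0.712% wider. Beside regions of 1 CuNZ@Gel library alone it was 68.4% of 608 narrower and 2.47% wider. Beside regions of both CuNZ@Gel libraries and 1 Gel library, 67 of 115 were narrower, 58.3% as beside the CuNZ-only regions, and 2 (1.74%) were wider. The median covered width of the 36 was 956 bp in Gel replicate 1 and 980 bp in Gel replicate 2, and 841 and 713.5 bp in the CuNZ@Gel libraries. All shared regions had 1086 and 1087 bp in Gel, and 788 and 692 bp with CuNZ@Gel. Most shared regions beside CuNZ-only peaks were thus also narrower in CuNZ@Gel.

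Summit height, in multiples of the library background, was compared in the same way. It was higher in both CuNZ@Gel than in both Gel libraries in 7.2% of all shared regions and lower in 56.7%. Among the 36 it was higher in 10 (27.8%) and lower in 13 (36.1%). Within 1 kb of regions of 1 CuNZ@Gel library alone, 15.0% of 608 were higher and 50.7% lower. Beside regions of both CuNZ@Gel libraries and 1 Gel library it was 14.8% and 45.2% of 115. Beside Gel-only regions it was 5.69% and 62.8% of 1546. The 90 shared regions nearest to a CuNZ-only region within 5 kb had 20.0% higher and 44.4% lower, and the 133 nearest to one over 10 kb away had 11.3% and 52.6%. The split depends on the scale. With each library's heights divided by their median over all shared regions, 24.4% of all shared regions were higher and 26.4% lower, against 19 (52.8%) higher and 4 (11.1%) lower of the 36. On that scale the 608 shared regions within 1 kb of a region of 1 CuNZ@Gel library alone had 31.4% higher, and the 115 within 1 kb of a region of both CuNZ@Gel and 1 Gel library had 42.6%. In multiples of library background, the median summit of the 36 was 8.23 and 8.29 in Gel replicates 1 and 2. All shared regions had 9.97 and 10.0 there. In CuNZ@Gel the 36 had 8.12 and 9.36, against 8.12 and 8.55 for all shared regions. The 36 thus had lower Gel summits than shared regions in general, and a like and a higher median in CuNZ@Gel. As with width, height is not fully independent of the rule. A taller Gel peak may also be wider and reach the CuNZ-only peak, which would remove that peak from the set. The CuNZ-only and shared peaks come from the same libraries, and no test of these differences was made.

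**Figure D4:**
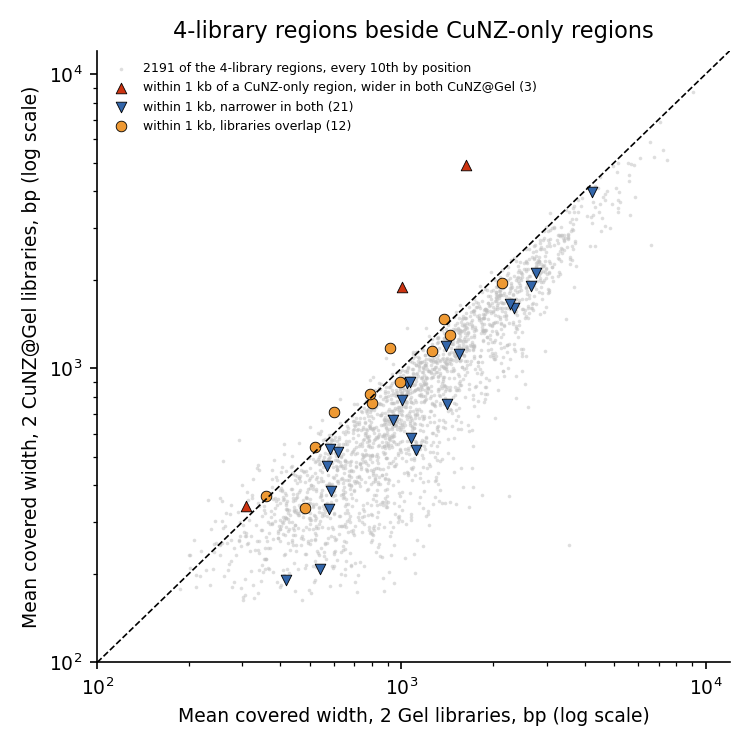
Points are regions with peaks in all 4 libraries, with the mean covered width in the 2 Gel libraries (x axis, bp, log scale) against that in the 2 CuNZ@Gel libraries (y axis, bp, log scale); the dashed line marks equal widths and grey points are every 10th of the 21909 regions. Of the 36 regions within 1 kb of a CuNZ-only region, 3 (triangles pointing up) were wider in both CuNZ@Gel libraries 21 (triangles pointing down) were narrower, and in 12 (circles) the treatments overlapped.

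The 3 wider ones were looked at singly, after their values were seen. At chr6:123237805-123242849 peaks covered 1705 and 1562 bp with Gel, against 5041 and 4739 bp with CuNZ@Gel, with summits of 6.07 and 4.67 against 18.9 and 24.0 times background. The CuNZ-only region chr6:123236905-123237208 lay 596 bp to its left, with 20 and 15 fragments and a fold of 4.72 and 4.52. This CuNZ-only peak thus lay beside a shared region that was broader and taller in both CuNZ@Gel libraries.

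At chr7:140972145-140974078, beside the strong chromosome 7 region named above, the widths were 1014 and 1000 bp in Gel and 1837 and 1926 bp in CuNZ@Gel. Its summits were 6.07 times background in both Gel libraries and 12.5 and 13.4 times in CuNZ@Gel. The third, chr3:87244997-87245364, differed little, with 307 and 311 bp against 335 and 343 bp. Its CuNZ-only neighbour chr3:87245562-87246159, 197 bp away, was among the 5 with the largest mean coverage, at 598 and 517 bp, and stood on 2.08 and 1.68 times the library background.

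Beside the chromosome 14 region, height differed and width overlapped. The shared region chr14:74969778-74971162 had summits of 14.1 and 15.4 times background in Gel and 23.2 and 25.6 times in CuNZ@Gel. In fragments, with no scaling for depth, these were 65 and 66 against 80 and 63, and the treatments overlapped. Its width was 1365 and 1161 bp with Gel, against 1174 and 1122 bp with CuNZ@Gel. The chromosome 14 CuNZ-only region itself had 784 and 427 bp under peaks, the second-largest mean coverage. The region chr7:16644116-16645028 had 353 and 857 bp in CuNZ@Gel replicates 1 and 2 and lay 137 bp from a shared region of over 4 kb. The region chr4:6354751-6355281 had 531 and 494 bp and lay 1364 bp from a shared region with 1407 and 826 bp under peaks in Gel, and 612 and 515 bp in CuNZ@Gel.

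Spacing along the chromosomes was described by the gap between neighbouring CuNZ-only regions. The nearest other CuNZ-only region was at a median of 1767606 bp. Within 100 kb of another lay 21 regions (8.11%), in 9 pairs and 1 group of 3, and within 10 kb only 4 regions, in 2 pairs. Such shares depend on the number of regions. Leaving out CuNZ@Gel replicate 1 or 2 gave 3020 or 4226 regions, with 53.7% or 62.4% within 100 kb of another. No expected spacing was computed, so neither clustering nor scatter is read from these values. The group of 3 spanned 174874 bp on chromosome 3. Its regions, chr3:101323699-101323999, chr3:101402820-101403162 and chr3:101498204-101498572, had a fold of 3.15, 2.63 and 4.14 in CuNZ@Gel replicate 1, and of 3.47, 4.02 and 3.76 in replicate 2. Each had a peak of 1 Gel library near it, at 519, 1696 and 43 bp, with a fold of 3.03, 3.03 and 3.19. The merged region at 519 bp also held a peak of CuNZ@Gel replicate 1, with a fold of 4.72 from 20 fragments.

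The tightest pair was chr16:14169039-14169527 and chr16:14170138-14170521, with 610 bp between them. Their fold was 3.52 and 4.05 in the first and 4.04 and 4.34 in the second. The nearest Gel peak was 6942 and 5948 bp away. The nearest shared region had summits of 13.4 and 16.1 times background in Gel and 18.9 and 17.5 times in CuNZ@Gel. In fragments, with no scaling for depth, these were 62 and 69 in Gel against 65 and 43 in CuNZ@Gel. In the pair of chr7:130296988-130297596 and chr7:130304578-130304999, 6981 bp apart, the fold was 3.60 and 3.76 in the first and 4.27 and 4.92 in the second. These were the only 2 pairs within 10 kb.

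By chromosome, leaving out Y, CuNZ-only regions were between 0.339% and 1.84% of all regions that the CuNZ@Gel libraries shared, and over all chromosomes 1.14%. Chromosome 3 had the highest share, 24 of 1302 (exact 95% binomial interval 1.18 to 2.73%). Chromosome 13 had the lowest among those with any, 3 of 885 (0.0700 to 0.987%). Chromosomes 4, 3, 2 and 1 held the most, with 25, 24, 22 and 21. Chromosome 11, where the CuNZ@Gel libraries shared the most regions, 1887, held only 13. Chromosome Y had none among 4. Chromosome 19 had 3 of 796 (0.0778 to 1.097%). The intervals cover counting error only. The regions come from the same 2 libraries and are not replicates, so no chromosome was tested against the others.

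**Figure D5:**
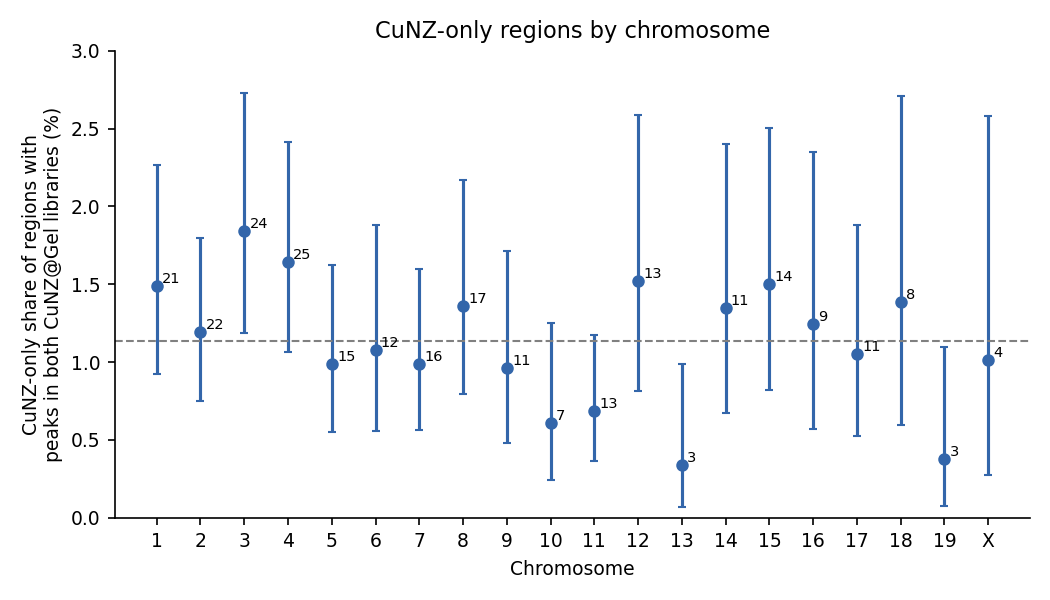
Points give, for each chromosome (x axis), CuNZ-only regions as a percentage of the regions shared by the CuNZ@Gel libraries (y axis), with exact 95% binomial intervals and the number of CuNZ-only regions beside each point; chromosome Y, with none, is not drawn. The dashed line is the share over all chromosomes, 1.14%, and the points run from 0.339% on chromosome 13 to 1.84% on chromosome 3.

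These values lay at the edge of the rule. The CuNZ-only region with the lowest −log10 q was chr1:167125221-167125804, at 1.35 in CuNZ@Gel replicate 2 and 3.36 in replicate 1. It was followed by chr2:26033204-26033598, at 1.42 in replicate 1 and 3.34 in replicate 2. Just outside were the 623 regions in which a single Gel library also had a peak, which was replicate 1 in 340 and replicate 2 in 283. Their weakest Gel peak, in replicate 1 at chr3:97616740-97617095, had a −log10 q of 1.38, a fold of 2.36 and 13 fragments. The median −log10 q of that single Gel peak was 4.70. These 623 had a median CuNZ@Gel fold of 3.60 and 3.76, close to the 3.37 and 3.67 of the CuNZ-only regions.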

How the data were processed

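H3ac ChIP-seq peak lists of 4 libraries, 2 per treatment, were used; the 2 deposited group lists and the 4 input samples were not used. The submitters' processing notes name GRCm39 and, with no role or order, the programs MACS2 2.2.8, deepTools 3.5.6, SAMtools 1.17 and fastp. For the aligner and the settings of peak calling, nothing is given in the sources used here. Per the labels each list belongs to 1 library. The deposited lists give for each peak a score, a fold enrichment ratio, a −log10 p and a −log10 q, which are the authors' values and were used only to describe or rank peaks within a list.

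Read totals are not in the lists. Summit fragments and background were solved from fold = (fragments + 1) / (background + 1) and the Poisson tail, with a whole number of fragments. This succeeded for 100% of peaks at a relative tolerance of 0.0001, and for 100% of 5000 peaks tested on simulated data. Peaks within 0.5% of the lowest background count as at library background. Where a library had several peaks in a region, the one with the highest −log10 p was taken. Python 3.11.15, pandas 2.3.3 and scipy 1.17.1 were used. Positions are 1-based.

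The CuNZ-only regions were chosen by these same lists, and the regions, lists and rules were chosen with earlier results of these data known, so no test was made. Named are the 10 regions with the highest mean fold, the 5 with the largest mean covered width, the 5 with the highest local background, the 5 closest to and the 5 farthest from a shared region, and the 3 largest groups chained by gaps of up to 100 kb (ties by shortest span, a choice made after the data were seen). Also chosen after values were seen were the repeat rates with their steps of −log10 p, the distance to any Gel peak, the comparison of shared regions beside CuNZ-only regions with both of its scalings, and the chromosome 6 example. Gene and sequence context was planned and not made, because the reference tables are of another build, GRCm38, and coordinates were not converted.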

Additional observations from a re-analysis of the deposited data

How the results depend on the processing

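The number of CuNZ-only regions depended on the processing. It was 498 when peaks had to overlap by 50% to count as shared, 41 under a stricter threshold, which kept peaks at or above the median score of their own list, and 688 with lists of equal length. It was 153 when summits had to lie within 100 bp, a setting chosen after the data were seen. Leaving out 1 library gave 572 to 4226 regions: 638 without Gel replicate 1, 572 without Gel replicate 2, 3020 without CuNZ@Gel replicate 1 and 4226 without CuNZ@Gel replicate 2. A common p limit, joining across 500 or 1000 bp and leaving out high local background gave 197 to 266, against 259.

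Covered width and fold are given here as the mean of the medians of the CuNZ@Gel libraries. Without 1 CuNZ@Gel library, they are the median of the remaining library alone. The covered width, 236 bp, was 261.5 bp at 50% overlap, 375.5 bp under the stricter threshold and 272 bp with equal lists. It was 228.5 bp joined across 1000 bp and 222 bp with close summits. Without 1 library it was 203 to 248.25 bp. The fold, 3.52, was 5.33 under the stricter threshold, and 3.15 to 3.68 without 1 library. The median distance to a shared region, 10586 bp, was 6287.5 bp at 50% overlap and 6813 bp under the stricter threshold. It was 15535 and 16289 bp joined across 500 and 1000 bp, and 8786 bp to regions in at least 3 libraries.

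The share within 100 kb of another, 8.11%, was 15.5% at 50% overlap, 4.88% under the stricter threshold, 20.2% with equal lists and 2.61% with close summits. Without 1 library it was 16.3 to 62.4%. With limits of 10 kb and 1 Mb it was 1.54% and 37.8%. The median local background ratio was 1 under every alternative run. The share with 1.5 times background or more, 2.70%, was 1.52 to 4.58%, within its exact 95% binomial interval of 1.09 to 5.49%. The cause of these differences was not tested. Sequence and gene alternatives were not run. No paired analysis was possible because the result comes from no test. Read totals are unknown, so a Gel library with too few fragments to be listed cannot be told from one with none.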

Other observations

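Peaks on unplaced scaffolds were outside the rule. Merged in the same way they gave 127 regions, of which 55 had peaks in all 4 libraries and 1 had peaks in both CuNZ@Gel libraries and in no Gel library.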
